A study of Homo sapiens with 6 samples.

Results

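The BCL2 family decides whether a cell opens its mitochondria and dies. The effectors BAX and BAK1 form pores in the mitochondrial outer membrane, the BH3-only proteins either switch the effectors on or occupy the anti-apoptotic members that restrain them, and cytochrome c that escapes through the pores starts the caspase cascade. The transcription factor p53 is known to act directly on several of the pro-apoptotic genes, among them BAX, BBC3 (encoding PUMA) and PMAIP1 (encoding NOXA). Here the mRNA of 10 pro-apoptotic members, of 57905 genes in the count matrix, was followed after p53 activation: the effectors BAX and BAK1, the BH3-only genes BID, BCL2L11 (encoding BIM) and BBC3, which can activate the effectors, and the BH3-only genes PMAIP1, BAD, BIK, BMF and HRK, known mainly for binding anti-apoptotic partners. The set was defined by gene symbol, with earlier results of these data known, and all 10 passed the low-count filter.

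The cells were HCT116, an established human colorectal carcinoma line with wild-type p53. Nut 0h cells received the vehicle DMSO, and Nut 1h and Nut 10h cells received Nutlin-3a at 10 µM, a small molecule that keeps MDM2 from binding and degrading p53, for 1 h or 10 h. Each of the 3 conditions had 2 biological replicates from 1 cell line. Adjusted p-values therefore rest on the spread between those pairs, moderated by information shared over all genes tested (3 residual and a median of 13.7 total degrees of freedom). In bulk RNA fewer cells expressing a gene and less RNA per cell cannot be told apart. Libraries held 26068076 to 35473485 counts, and mitochondrial genes took 4.99% to 8.44% of them, with the Nut 1h libraries (8.44% and 8.15%) above the others, and the part of this share in the results was not tested. The epithelial genes EPCAM, KRT8, KRT18, KRT19 and CDH1 were abundant, the intestinal factor CDX1 had 0 to 2 counts per library, the blood genes PTPRC, CD3E and CD68 and the fibroblast gene COL3A1 had 0 to 4, the endothelial gene VWF had 10 to 23, and COL1A1 had 621 to 1484. At Nut 1h by TMM scaling EPCAM (log2 fold change 0.46) and CDH1 (0.51) were called higher, and KRT18 (-0.36), KRT8 (-0.71), KRT19 (-0.98) and COL1A1 (-0.78) lower. Exons of KRT8 and KRT18 overlap on opposite strands, so reads of that overlap could not be assigned with certainty. MDM2, a p53 target, was upregulated at both times (log2 fold changes 2.19 and 3.75), whereas the p53 target CDKN1A stood at 0.05 at Nut 1h (adjusted p = 0.704) and at 3.84 at Nut 10h by TMM scaling. Fold changes at Nut 1h followed the GC content of the transcript across genes (Pearson r = -0.69 over 16137 genes, which are not independent), while those at Nut 10h did not (r = -0.03). Fold changes at Nut 1h are therefore given both with the usual TMM scaling and with an added GC-content offset, which removes the trend of each library's values along GC content. Normalized counts, levels per kilobase and the search for genes of similar pattern use TMM alone. With that offset CDKN1A was called higher at Nut 1h (0.74, adjusted p = 1.04e-06) and MDM2 stood at 1.52, while of the markers named only CDH1 was called (0.42). At Nut 10h KRT19 was called higher (0.87, and 0.91 with the offset) and EPCAM lower (-0.32, and -0.34 with the offset). The other markers tested were not called at Nut 10h, and the part of these changes in the results was not tested.

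The p53 response element consists of a pair of 10-base modules, each built around a core of C, then A or T, then A or T, then G. The GRCh37 sequence from 1000 bases before to 200 bases after each annotated protein-coding transcript start was searched on both strands for 2 modules with intact cores, 0 or 1 base between them, and at most 3 of the 12 other bases off the consensus. These limits were set with known sites of BAX and BBC3 in view, so the matches are a description of the members' promoters. A match was present for 5 of the 10 members (BAX, BBC3, PMAIP1, BAD and BCL2L11), against 8.19% of 19833 protein-coding genes and 3.87% of all 78716 windows of this length. All 5 are shown, since the members with a match include BAX, BBC3 and PMAIP1, which rose at Nut 10h, and BAD and BCL2L11, which fell, while BIK and BAK1 rose without one. Each is written 5′ to 3′ on the strand of its gene, with the match in capitals. The capitals run from the first base of one module to the last of the other and include any base between them. None of the 5 matches lies in an annotated exon of a member, and exons of other genes were not checked.
BAX, chr19:49457661-49457761: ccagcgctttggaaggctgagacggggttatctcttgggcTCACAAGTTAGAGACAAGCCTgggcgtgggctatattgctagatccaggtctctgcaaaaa
BBC3, chr19:47734537-47734636: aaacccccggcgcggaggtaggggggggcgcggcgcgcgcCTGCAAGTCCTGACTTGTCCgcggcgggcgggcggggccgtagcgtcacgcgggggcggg
PMAIP1, chr18:57566741-57566840: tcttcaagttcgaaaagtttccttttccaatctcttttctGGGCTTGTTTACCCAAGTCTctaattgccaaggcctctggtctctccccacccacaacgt
BAD, chr11:64039949-64040049: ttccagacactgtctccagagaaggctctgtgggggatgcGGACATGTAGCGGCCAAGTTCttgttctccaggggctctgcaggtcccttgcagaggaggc
BCL2L11, chr2:111875939-111876039: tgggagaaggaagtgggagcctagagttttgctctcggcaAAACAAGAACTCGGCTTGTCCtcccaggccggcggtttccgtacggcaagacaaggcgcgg

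The PMAIP1 match was closest to the consensus, with 2 bases off, and it lay 447 bases upstream of the start of the gene. The BBC3 match had no base between its modules, 3 bases off, and lay 140 bases upstream of an internal start, inside an intron of the longest BBC3 gene model. BAX and BCL2L11 each held a match with 1 base between the modules and 3 off, 431 and 976 bases upstream of a transcript start. The BAD match, also with 3 off, lay 669 bases upstream of an internal start and inside an intron of the gene. No match was found in the windows of BAK1, BID, BIK, BMF and HRK, which says only that these letters were not in those windows.

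At Nut 10h 5 of the 10 members were upregulated (BBC3, BAX, BIK, PMAIP1 and BAK1) and 3 were downregulated (BAD, BCL2L11 and BMF), where 14.1% of the 16565 genes tested were called higher and 14.9% lower. The calls of BAK1, BCL2L11 and BMF at Nut 10h did not hold in every alternative fit, as given below for each gene. With an absolute log2 fold change of at least 1 also required, 2 members were higher and 0 lower at Nut 10h, where 3.74% and 3.11% of all genes were called. At Nut 1h 2 members were upregulated (PMAIP1 and BCL2L11) and 7 were downregulated, where 34.5% of all genes were called higher and 32.3% lower. A call here is a Benjamini-Hochberg adjusted p of at most 0.05 over all genes tested in edgeR's quasi-likelihood test. The members' median log2 fold change was 0.14 at Nut 10h, beside 0.00017 over all genes tested, and -0.72 at Nut 1h, beside 0.05. The early counts depended on the scaling: adding the GC-content offset gave 4 members higher and 2 lower at Nut 1h, with a median of -0.08, where 23.0% of all genes were called higher and 23.3% lower. Both comparisons use the same Nut 0h libraries, so they are not independent of each other.

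**Figure D1:**
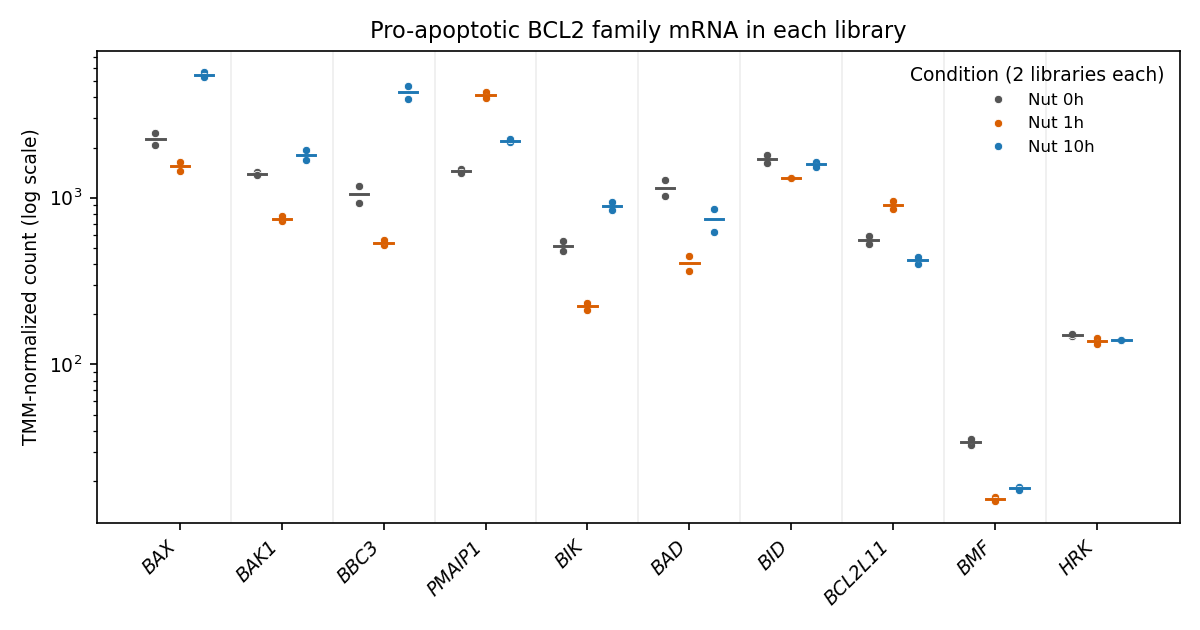
TMM-normalized counts (y axis, log scale) of the 10 pro-apoptotic genes in each of the 6 libraries; each point is 1 library, each short line the mean of its 2 libraries, and colors mark the condition. BAX and BBC3 are highest in the Nut 10h libraries, PMAIP1 and BCL2L11 in the Nut 1h libraries, and HRK is nearly level.

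BAX (ENSG00000087088, chr19:49458072-49465055, plus strand), the effector that moves from the cytosol to mitochondria, had 2431 and 2058 normalized counts in Nut 0h replicates 1 and 2. It had 1442 and 1644 at Nut 1h, then 5664 and 5301 at Nut 10h. All 3 conditions were separate, with the Nut 10h libraries far above the rest. The rise at Nut 10h was 2.44-fold (log2 fold change 1.29, SE 0.11, adjusted p = 5.33e-07). At Nut 1h BAX was lower by TMM scaling alone (log2 fold change -0.54, SE 0.11, adjusted p = 0.000502), but with the GC-content offset it was higher (0.21, SE 0.07, adjusted p = 0.0196). The direction of BAX at Nut 1h thus turned with the scaling, and that at Nut 10h did not (1.33 with the offset).

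BAK1 (ENSG00000030110, chr6:33540324-33548070, minus strand), the effector that resides on mitochondria, rose less than BAX at Nut 10h. It had 1419 and 1368 normalized counts at Nut 0h, 723 and 777 after 1 h, and 1921 and 1695 after 10 h. The Nut 10h libraries stood above the Nut 0h libraries without overlap, but the difference was only 1.30-fold (log2 fold change 0.38, SE 0.10, adjusted p = 0.0112). It was no longer called without Nut 0h replicate 2 (adjusted p = 0.0626) or without Nut 10h replicate 1 (0.0679). The fall at Nut 1h (-0.89, SE 0.10, adjusted p = 4.45e-06) shrank to -0.15 with the GC-content offset and was then not called (adjusted p = 0.110).

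BBC3 (ENSG00000105327, chr19:47724079-47736023, minus strand), whose product PUMA binds every main anti-apoptotic family member, was the member that rose most at Nut 10h. In vehicle cells it had 1176 and 934 normalized counts, after 1 h 521 and 556, and after 10 h 4698 and 3891. The lower Nut 10h library was well above the higher Nut 0h library. The change at Nut 10h was 4.07-fold (log2 fold change 2.02, SE 0.12, adjusted p = 2.97e-08), and 2.17 on the log2 scale with the GC-content offset. At Nut 1h BBC3 was lower by TMM scaling (-0.97, SE 0.13, adjusted p = 1.71e-05) and higher with the offset (0.85, SE 0.07, adjusted p = 5.08e-07). Its transcript has a GC content of 69.7%, higher than that of 99.5% of the genes tested.

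PMAIP1 (ENSG00000141682, chr18:57567228-57571537, plus strand), whose product NOXA binds mainly MCL1, was upregulated at both times. It had 1482 and 1404 normalized counts at Nut 0h, 4329 and 3939 after 1 h, and 2153 and 2243 after 10 h. Every treated library lay above both vehicle libraries, and by TMM scaling the early libraries were highest. The rise was 2.87-fold at Nut 1h (log2 fold change 1.52, SE 0.09, adjusted p = 6.15e-08) and 1.52-fold at Nut 10h (0.61, SE 0.09, adjusted p = 0.000243). With the GC-content offset PMAIP1 remained called at both times, at 0.70 (adjusted p = 4.14e-06) and 0.59 (adjusted p = 2.18e-05), and the difference between the times was then not called (-0.11, adjusted p = 0.219). The PMAIP1 transcript has a GC content of 36.7%, and 4.58% of the genes tested have a lower one.

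BIK (ENSG00000100290, chr22:43506756-43525718, plus strand), a BH3-only gene whose product resides at the endoplasmic reticulum, had 548 and 482 normalized counts at Nut 0h, 233 and 213 after 1 h, and 944 and 842 after 10 h. The libraries of the 3 conditions did not overlap. BIK was downregulated at Nut 1h (log2 fold change -1.20, SE 0.13, adjusted p = 1.98e-06) and upregulated at Nut 10h (0.79, SE 0.11, adjusted p = 0.000114). Unlike BAX and BBC3, it was also called lower at Nut 1h once the offset was added (-0.67, SE 0.10, adjusted p = 9.82e-05). This was 1 of 2 members, with BID, that fell at Nut 1h under both scalings.

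BAD (ENSG00000002330, chr11:64037302-64052176, minus strand), whose product is held inactive by survival-factor phosphorylation, had 1270 and 1026 normalized counts at Nut 0h. It had 365 and 449 after 1 h and 859 and 623 after 10 h. Both treated conditions were below the vehicle, and the 2 Nut 10h libraries differed by 1.38-fold from each other, the widest replicate gap among the members. The fall at Nut 10h was 1.55-fold (log2 fold change -0.63, SE 0.15, adjusted p = 0.00628) and was also called with the GC-content offset (-0.54, adjusted p = 0.000168). The fall at Nut 1h was 2.83-fold (-1.50, SE 0.16, adjusted p = 2.34e-06), but with the offset the value was -0.07 (adjusted p = 0.565). Exons of BAD overlap those of GPR137 on the other strand, and the strand setting of the counting is not given in the sources used here, so reads of the overlap could not be assigned with certainty.

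BCL2L11 (ENSG00000153094, chr2:111876955-111926021, plus strand), whose product BIM activates the effectors and binds every main anti-apoptotic member, rose early and fell late. It had 531 and 588 normalized counts at Nut 0h, 957 and 861 after 1 h, and 399 and 443 after 10 h. The 3 conditions were separate, with Nut 1h highest and Nut 10h lowest. The rise at Nut 1h was 1.63-fold (log2 fold change 0.70, SE 0.11, adjusted p = 7.22e-05) and stayed called with the GC-content offset (0.49, adjusted p = 0.000369). The fall at Nut 10h was 1.33-fold (-0.41, SE 0.11, adjusted p = 0.0156), and it was lost without Nut 0h replicate 2 (adjusted p = 0.0835) or Nut 10h replicate 1 (0.0626). Exons of BCL2L11 overlap those of the antisense lncRNA MIR4435-2HG, so the same limit on strand applies.

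BID (ENSG00000015475, chr22:18216904-18257536, minus strand), the link from caspase-8 to mitochondria, had 1817 and 1621 normalized counts at Nut 0h, 1317 and 1305 after 1 h, and 1640 and 1531 after 10 h. The Nut 1h libraries were lowest, while the Nut 10h and Nut 0h libraries overlapped. BID fell at Nut 1h (log2 fold change -0.39, SE 0.10, adjusted p = 0.00291), by nearly the same amount with the GC-content offset (-0.36, adjusted p = 0.00134). At Nut 10h its log2 fold change was -0.12 with a 95% interval of -0.32 to 0.09 (adjusted p = 0.406).

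BMF (ENSG00000104081, chr15:40380091-40401093, minus strand), a BH3-only gene linked to loss of cell attachment, was the scarcest member. Its raw counts were 34 and 38 at Nut 0h, 16 and 12 after 1 h, and 19 and 19 after 10 h. Both treated conditions were below the vehicle, but on few counts. The log2 fold changes were -1.13 at Nut 1h (SE 0.34, adjusted p = 0.00979) and -0.92 at Nut 10h (SE 0.32, adjusted p = 0.0461). Neither was called by DESeq2 (adjusted p = 0.110 and 0.276), and the call at Nut 10h was lost on leaving out any 1 of the 6 libraries (adjusted p = 0.0901 to 0.198). The call at Nut 1h was also lost with the GC-content offset (-0.69, adjusted p = 0.118), and without Nut 0h replicate 2 (0.0609), Nut 1h replicate 1 (0.0669) or Nut 1h replicate 2 (0.0648).

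HRK (ENSG00000135116, chr12:117293949-117319246, minus strand), a BH3-only gene best known from neurons, had 148 and 151 normalized counts at Nut 0h, 144 and 133 after 1 h, and 139 and 140 after 10 h. The libraries of all conditions lay close together. The log2 fold change was -0.10 at both times, with a 95% interval of -0.43 to 0.23 at Nut 1h (adjusted p = 0.573) and of -0.43 to 0.22 at Nut 10h (adjusted p = 0.662). HRK was the member called in no comparison.

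**Figure D2:**
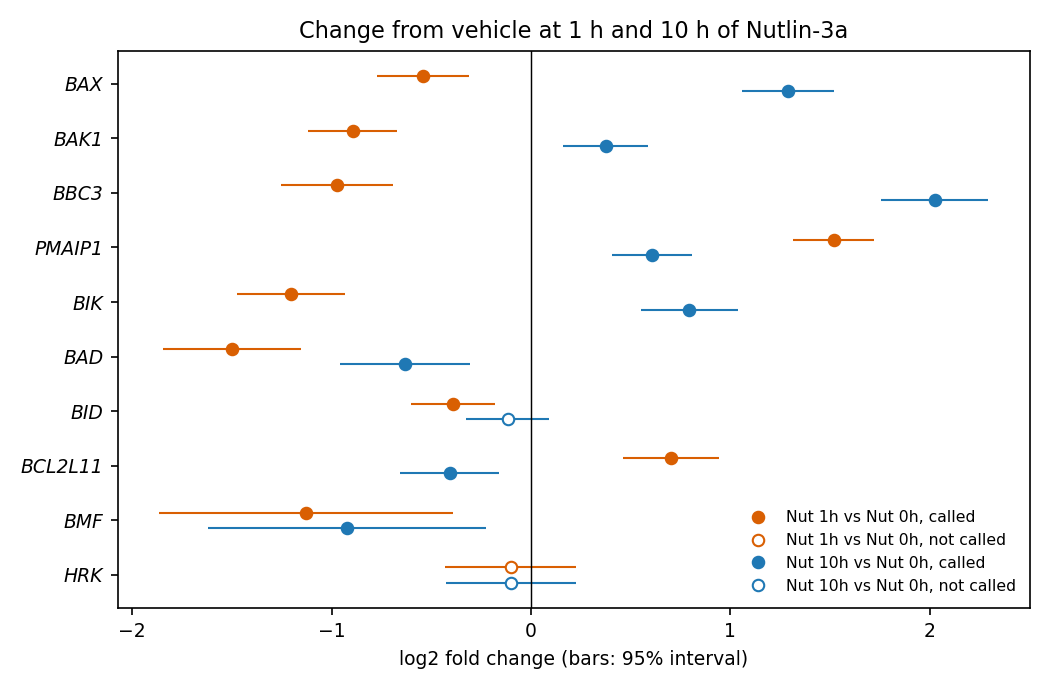
Log2 fold change (x axis) of each pro-apoptotic gene against Nut 0h at Nut 1h and Nut 10h by TMM scaling; bars are 95% intervals and open circles did not pass an adjusted p of 0.05. BAX, BAK1, BBC3 and BIK lie left of 0 at Nut 1h and right of it at Nut 10h, BCL2L11 does the reverse, and PMAIP1 is right of 0 at both times.

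The direct comparison of the 2 Nutlin-3a times tested the shift from early to late. Of the 10 members 6 were higher at Nut 10h than at Nut 1h (BBC3, BIK, BAX, BAK1, BAD and BID) and 2 were lower (BCL2L11 and PMAIP1), where 34.2% of all genes were called higher and 33.7% lower. By TMM scaling BBC3 differed most, by 7.98-fold (log2 fold change 3.00, SE 0.13, adjusted p = 6.30e-10), whereas with the GC-content offset BIK did (1.49, beside 1.31 for BBC3). By TMM scaling BIK followed BBC3 at 1.999 and BAX came next at 1.83, whereas BCL2L11 stood at -1.11 and PMAIP1 at -0.91. The smallest called difference was that of BID (0.27, adjusted p = 0.0235), which was lost without Nut 1h replicate 1 (0.127), Nut 1h replicate 2 (0.123) or Nut 10h replicate 1 (0.0608). BMF and HRK were not called.

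With the GC-content offset, 5 members were higher at Nut 10h than at Nut 1h and 2 were lower, where 29.1% and 29.3% of all genes were called. BBC3 (1.31), BIK (1.49), BAX (1.12), BAK1 (0.56), BID (0.22) and BCL2L11 (-0.92) kept their directions. PMAIP1 was then not called (-0.11, adjusted p = 0.219), and BAD turned from higher (0.87, adjusted p = 0.000282) to lower (-0.47, adjusted p = 0.000806). Against Nut 0h the 4 members higher at Nut 1h under the offset were BBC3, PMAIP1, BCL2L11 and BAX, and the 2 lower were BIK and BID. At Nut 10h the same 5 members were higher and the same 3 lower as with TMM alone, where 18.8% and 20.3% of all genes were called.

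**Figure D3:**
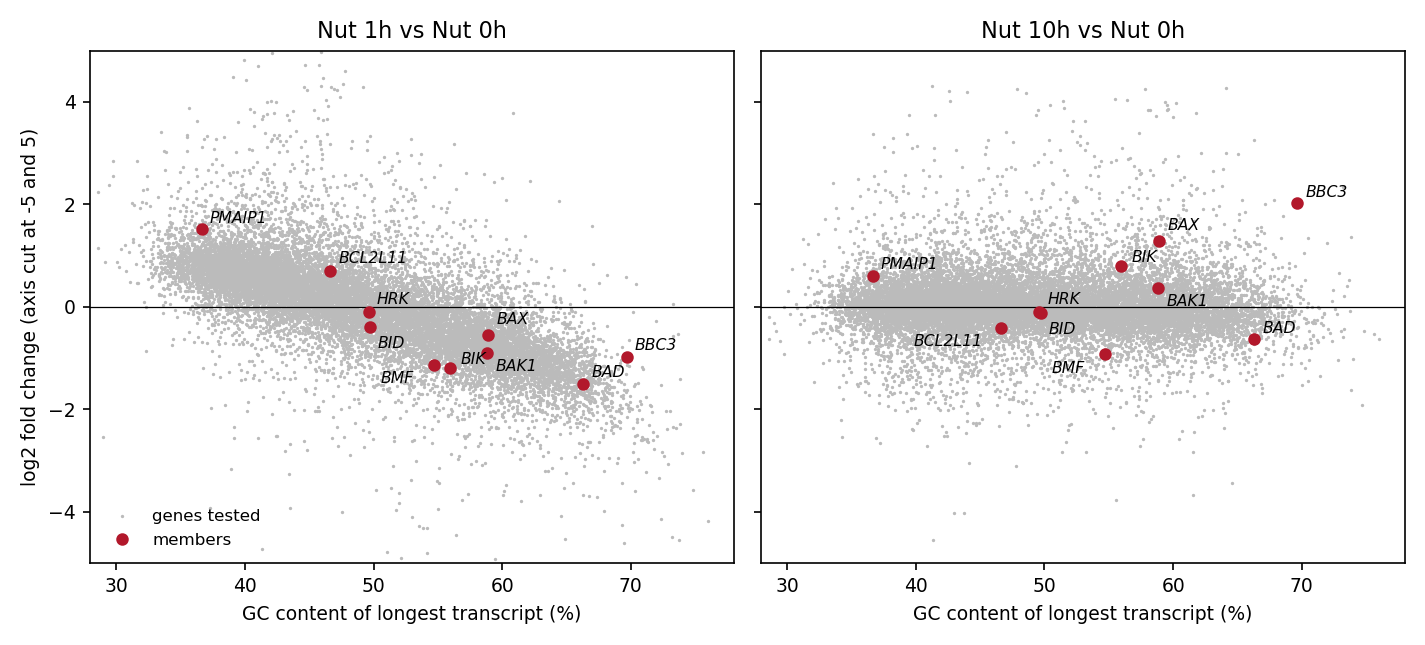
Log2 fold change (y axis) against the GC content of the longest transcript (x axis, percent) for all genes tested with a known GC content (grey) and the 10 members (red), at Nut 1h (left) and Nut 10h (right). At Nut 1h the grey cloud falls from left to right (r = -0.69) and most members lie within it. At Nut 10h the cloud is flat (r = -0.03), and BBC3 (2.02) and BAX (1.29) lie well above 0, as do other genes.

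The members span a wide range of GC content. PMAIP1 (36.7%) and BCL2L11 (46.6%) lie below the median of 48.7% over the genes tested, and they were the 2 members higher at Nut 1h by TMM scaling. HRK (49.6%), BID (49.7%), BMF (54.7%), BIK (55.9%), BAK1 (58.8%), BAX (58.9%), BAD (66.3%) and BBC3 (69.7%) lie above it, and all but HRK were called lower. The Nut 1h offset moved BBC3 most and left HRK and BID nearly in place.

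**Figure D4:**
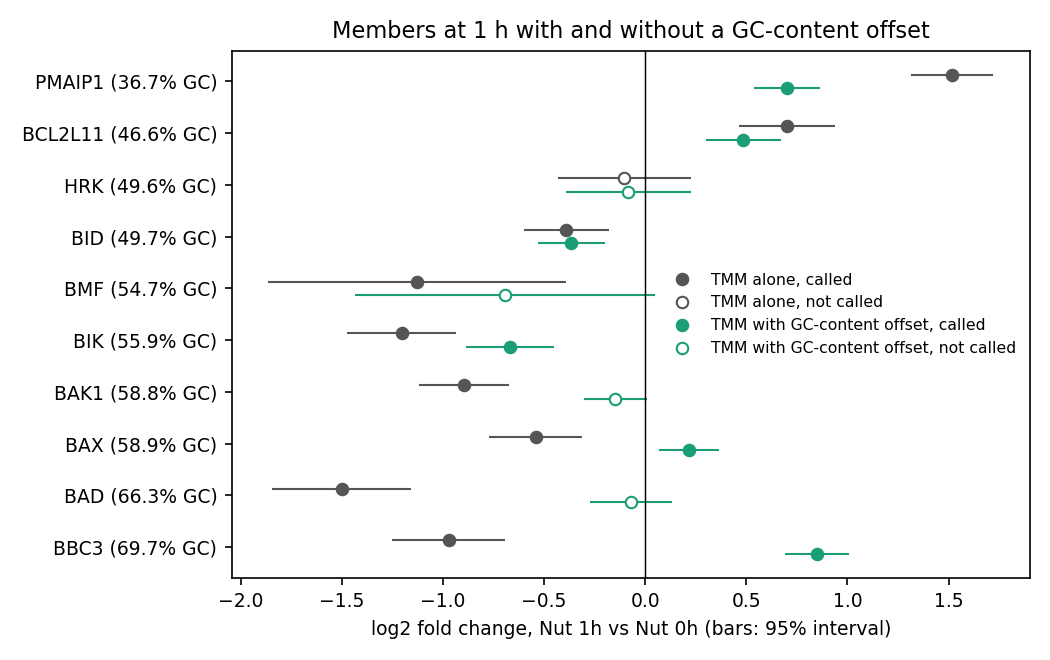
Log2 fold change at Nut 1h against Nut 0h (x axis) for each member, ordered by GC content, with TMM alone (grey) and with TMM and the GC-content offset (green); bars are 95% intervals and open circles are not called. BBC3 goes from -0.97 to 0.85 and BAX from -0.54 to 0.21, BAD from -1.50 to -0.07, and BID and HRK hardly move.

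Levels of different genes were compared as CPM (counts scaled to a common library size) per kilobase of exon. In vehicle cells the order was BAX (26.3 ± 3.09, SD, n = 2), BAD (20.4 ± 3.05), PMAIP1 (19.996 ± 0.77), BAK1 (19.1 ± 0.49), BIK (16.4 ± 1.49), BID (11.8 ± 0.95), BBC3 (10.0 ± 1.62), BCL2L11 (2.51 ± 0.18), HRK (0.661 ± 0.010) and BMF (0.191 ± 0.011). The libraries of BAD overlapped those of PMAIP1 and of BAK1, and those of BID overlapped those of BBC3, so these were not separable. After 1 h of Nutlin-3a PMAIP1 led at 57.3 ± 3.82, ahead of BAX at 18.1 ± 1.67, on TMM values without the GC-content offset. After 10 h BAX led at 64.2 ± 3.01, and BBC3, seventh in vehicle cells, came next at 40.8 ± 5.43. The libraries of PMAIP1 (30.5 ± 0.88) and BIK (28.4 ± 2.28) overlapped at Nut 10h, as did those of BAD (13.1 ± 2.96) and BID (10.9 ± 0.53). BCL2L11, HRK and BMF were the lowest 3 in every condition.

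Anti-apoptotic genes, whose products these proteins bind, were read from the same fit. BCL2L1, encoding BCL-XL, had 13568 and 12168 normalized counts at Nut 0h, 6465 and 6870 after 1 h, and 19684 and 18717 after 10 h. It was thus lowest early (log2 fold change -0.95, adjusted p = 1.50e-06; -0.25 after the GC-content offset, adjusted p = 0.00427) and highest late (0.58, adjusted p = 0.000393). MCL1, the main partner of NOXA, had 5675 and 5794 normalized counts at Nut 0h, 13430 and 12765 after 1 h, and 6154 and 6768 after 10 h. It was upregulated at Nut 1h (1.19, adjusted p = 2.37e-07; 0.84 with the offset), the time at which PMAIP1 was highest by TMM scaling alone, and stood at 0.17 at Nut 10h (adjusted p = 0.182). BCL2 was higher at Nut 1h (0.64, adjusted p = 0.00893), a call lost after the offset (0.35, adjusted p = 0.136), and lower at Nut 10h (-0.80, adjusted p = 0.0110), on 44 to 120 raw counts, and DESeq2 did not call the late fall. BCL2L2, encoding BCL-W, was called higher at Nut 1h (0.47, and 0.71 after the offset) and not at Nut 10h (0.09, adjusted p = 0.539). Exons of BCL2L2 overlap those of BCL2L2-PABPN1 on its own strand and of PPP1R3E on the other, and exons of MCL1 overlap those of ADAMTSL4 on the other. Reads of these overlaps could not be assigned with certainty either. Of the 6 anti-apoptotic genes listed, BCL2A1 and BCL2L10 had 0 to 3 counts per library and were not tested. Of the other 4, 3 were higher and 1 lower at Nut 1h, where 34.5% and 32.3% of all genes were called, with a median of 0.55 beside 0.05 over all genes. At Nut 10h 1 was higher and 1 lower, where the shares were 14.1% and 14.9%, with a median of 0.13 beside 0.00017. After the GC-content offset these counts were 2 higher and 1 lower at Nut 1h, where 23.0% and 23.3% of all genes were called, and the same as before at Nut 10h, where 18.8% and 20.3% were.

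**Figure D5:**
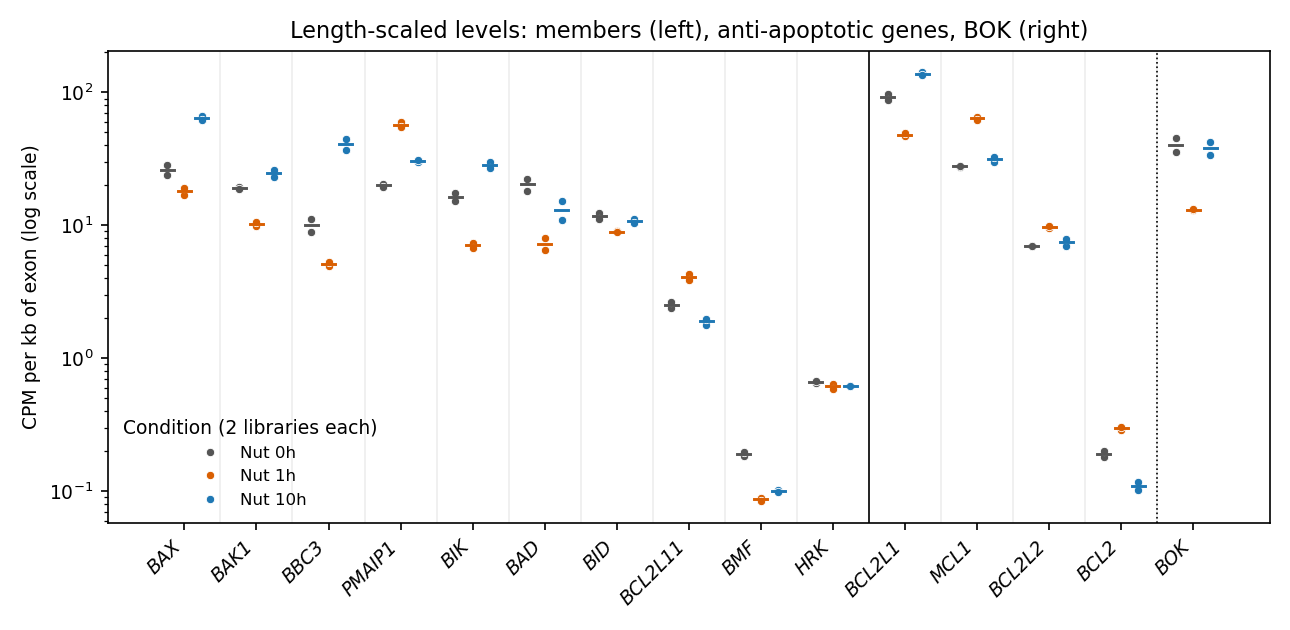
CPM per kilobase of exon (y axis, log scale) for the 10 members, the 4 tested anti-apoptotic genes right of the solid line, and BOK right of the dotted line; points are libraries and short lines means of 2. BCL2L1 lies above every member in vehicle cells and after 10 h, and PMAIP1 and MCL1 are both highest at Nut 1h, on TMM values without the GC-content offset.

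BOK, the remaining effector-like member of the family, had 4001 and 3178 normalized counts at Nut 0h, 1145 and 1177 after 1 h, and 3733 and 3009 after 10 h. It fell by 1.63 on the log2 scale at Nut 1h (adjusted p = 2.54e-07) and stood near the vehicle level at Nut 10h (-0.09, 95% interval -0.35 to 0.17, adjusted p = 0.627). After the GC-content offset its value at Nut 1h was -0.22. Of 11 genes listed for the mitochondrial route to cell death, including CASP8 and the outer membrane channels VDAC1 and VDAC2 and left after a cut by 2 genes made with results known, 2 were upregulated at Nut 10h and 9 were not called, where 14.1% of all genes were called higher, with a median of -0.05 beside 0.00017 over all genes. APAF1, the scaffold on which cytochrome c activates caspase-9, had 575 and 655 normalized counts at Nut 0h, 789 and 717 after 1 h, and 1283 and 1688 after 10 h. Its rise at Nut 10h was 1.27 on the log2 scale (adjusted p = 5.31e-06), and CASP8, the initiator caspase that cleaves BID, rose by 0.37 (adjusted p = 0.0247). None of the 11 was called lower at Nut 10h by edgeR with TMM, against 14.9% of all genes, and 2, ENDOG and HTRA2, had negative values at unadjusted p-values of 0.0470 and 0.0198. The count lower was 0 with DESeq2 size factors, 0 by DESeq2 and 2, HTRA2 and VDAC1, with the GC-content offset, where 20.3% of all genes were called lower. By TMM scaling, the others not called at Nut 10h had log2 fold changes of 0.28 for DIABLO, 0.15 for CASP9, 0.0075 for XIAP, -0.05 for VDAC2 and -0.13 for CYCS, AIFM1 and VDAC1. At Nut 1h 6 of the 11 were higher and 4 lower, where 34.5% and 32.3% of all genes were called, and with the GC-content offset 3 were higher and 5 lower, where 23.0% and 23.3% were called. The values at Nut 1h without and with the offset were 0.93 and 0.35 for CYCS, 1.21 and 0.52 for XIAP, -1.21 and -1.31 for HTRA2, and -3.98 and -2.36 for ENDOG. AIFM1 turned from called higher (0.22, adjusted p = 0.0433) to called lower (-0.28, adjusted p = 0.00341), APAF1 from 0.29 (adjusted p = 0.0680) to called lower (-0.25, adjusted p = 0.0465), and CASP8 lost its call (0.69 to 0.19, adjusted p = 0.0751). Exons of HTRA2 overlap those of AUP1, exons of ENDOG those of SPOUT1, and exons of DIABLO those of B3GNT4, on the other strand. The limit on strand holds for each of these genes.

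For members called at Nut 10h that averaged 100 or more normalized counts, the genes with the most similar pattern over the 6 libraries were found by the Pearson r of log2(CPM + 1) among 11576 genes, as a description. The libraries of a condition share their treatment, so with 6 points many genes reach a high r. Both the r values and the fold changes below use TMM scaling without the GC-content offset, under which BBC3 and BAX turned at Nut 1h. The closest to BBC3 were CES2 and PROCR, which had log2 fold changes of 1.14 and 0.99 at Nut 10h and of -0.61 and -0.51 at Nut 1h. DNAJB2 (0.94 and -0.41) and SEC61A1 (0.50 and -0.23) were closest to BAX, and FBXO41 (0.36 and -0.87) and ENTPD6 (0.34 and -0.73) to BAK1. TMEM173 and CRADD were closest to BIK, PSPH and RPS6KC1 to PMAIP1, ASNA1 and THAP4 to BAD, and MANEA and NIN to BCL2L11. All these r values were 0.997 or higher.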

How the data were processed

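RNA-seq of HCT116 cells was analysed in 6 libraries. The authors trimmed paired reads with Trim Galore 0.6.6, aligned them to GRCh37.p13 with STAR 2.7.0f and deposited raw counts per gene from featureCounts (Subread 2.0.0), per the submitters' processing notes. Strand setting and treatment of multimapping reads are not given in the sources used here. A deposited table of DESeq2 1.36.0 fold changes and p-values was read only for gene symbols. Counts were fitted with edgeR 4.0.16 (TMM, filterByExpr, quasi-likelihood test, condition as the only term) over all 6 libraries, and p-values were adjusted by Benjamini-Hochberg over 16565 genes. The SE is the absolute log2 fold change over the square root of F. Normalized counts are TMM-scaled counts at a common depth. The GC-content offset subtracted a loess trend (span 0.4) of each library's log2 deviation on transcript GC content, which was known for 97.4% of the genes tested. Alternatives were other scalings, DESeq2 1.42.0, limma-voom (limma 3.58.1), no filter, a replicate block, only the conditions compared, stricter thresholds and leaving out each library. The fits were also run on simulated counts with changes set at Nut 10h, and the GC-content offset on a simulated GC trend at Nut 1h. Their outcomes are not given here, and no support is drawn from them. Loci, lengths, GC content and sequences came from GENCODE v44 lifted to GRCh37. The libraries of a condition differed by more than sampling noise (chi-square per degree of freedom 5.13 to 16.7). All 10 members and the genes counted in the pathway lists are named; for each member called at Nut 10h with at least 100 mean normalized counts, so are the 2 genes most like it. The list for the mitochondrial route to cell death was cut by 2 genes, which are not reported here, after its results were known. The members and lists were chosen with earlier results of these data known.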

Additional observations from a re-analysis of the deposited data

Results flagged for a closer look

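For 5 members the changes at the 2 times went in opposite directions, each past the threshold of edgeR's quasi-likelihood test, and the difference between Nut 10h and Nut 1h was itself tested. The log2 fold change between the times was 3.00 for BBC3, 1.999 for BIK, 1.83 for BAX and 1.27 for BAK1, which were lower at Nut 1h and higher at Nut 10h. It was -1.11 for BCL2L11, which was higher at Nut 1h and lower at Nut 10h. Once the GC-content offset was added, the 5 differences kept their directions and their calls. However, BBC3 and BAX were then higher at both times, and BAK1 was not called at Nut 1h. The opposite directions were thus left for BIK and BCL2L11 alone. The changes of BCL2L11 (-0.41) and BAK1 (0.38) at Nut 10h were small and rest on single libraries, as given above. The share of all 16565 genes with such opposite calls was not counted under either scaling. Whether the 5 members, or those left under the offset, stand out from other genes was therefore not tested.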

How the results depend on the processing

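With 2 libraries per condition and 3 residual degrees of freedom, the small changes of BAK1 and BCL2L11 at Nut 10h and of BID between the 2 Nutlin-3a times rest on single libraries, and the 12 to 38 raw counts of BMF limit any statement on it. Over all alternatives, 437 log2 fold changes of members kept their direction and side of the threshold, 30 lost their call and 13 turned. With the GC-content offset, alone or with the replicate block, members higher at Nut 1h went from 2 to 4 and members lower from 7 to 2. Of all genes, 34.5% were called higher and 32.3% lower at Nut 1h with TMM, and 23.0% and 23.3% with the offset. Under the offset, alone or with the block, 4 values turned: BAX at Nut 1h (0.21 in both), BBC3 at Nut 1h (0.85 in both), and at Nut 10h against Nut 1h BAD (-0.47 in both) and BMF (-0.21 in both). The cause of these turns was not tested. The HRK difference between the 2 Nutlin-3a times, at 0.0017, changed sign under 4 settings (-0.0016 without the low-count filter, -3.06e-07 with limma-voom, -0.0485 with the offset and -0.0467 with offset and block) and ranged from -0.0479 (without Nut 1h replicate 2) to 0.0572 on leaving out single libraries. Requiring an absolute log2 fold change of at least 1 left 1 member higher and 3 lower at Nut 1h, 2 higher and 0 lower at Nut 10h, and 4 higher and 1 lower at Nut 10h against Nut 1h, where 10.1%, 13.9%, 3.74%, 3.11%, 16.4% and 12.3% of all genes were called (higher, then lower, at Nut 1h, at Nut 10h and between the 2 times). At an adjusted p of at most 0.01, 4 members were higher and 1 was lower at Nut 10h, where 8.58% and 9.41% of all genes were called. On leaving out single libraries, the log2 fold change at Nut 10h ranged from -0.40 to -0.88 for BAD. It ranged from -0.87 to -0.98 for BMF and from 0.29 to 0.48 for BAK1. Genes called at Nut 1h numbered 5722 higher and 5355 lower with TMM, 3802 and 3854 with the offset, and 3721 and 3764 with offset and block.

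Same-numbered libraries deviated together for Nut 0h and Nut 10h (correlation 0.45) but not for Nut 0h and Nut 1h (-0.31) or Nut 1h and Nut 10h (-0.28), so the numbers were not taken as pairs. With the replicate block BMF at Nut 10h was lost (-0.92, adjusted p = 0.0627) and no other member's call changed. A crossed pairing, chosen after seeing the data, gave 3724 genes higher and 3907 lower at Nut 10h, against 2340 and 2470.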
